A study of Mus musculus with 6 samples.

Results

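The S100 genes encode small calcium-binding proteins, and 8 of them (S100a1, S100a4, S100a6, S100a10, S100a11, S100a13, S100a16 and S100b) are described here across 6 RNA-seq libraries of Twitch-2B-positive cells sorted from the olfactory bulb (OB) of adult mice. The 8 genes were taken by symbol from the 55573 genes of the deposited count table, and all 8 passed the count minimum of 1 CPM in 2 libraries that left 12275 genes. They were chosen by their levels in these same libraries and by how these differed between the groups, so their values are a description. No p of a single one is given, and counts of those past a threshold are set beside the share of all genes and support nothing. CPM is the count put on a common scale of 1000000 counts per library, with library sizes scaled by the trimmed mean of M-values (TMM).

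All mice were 3-month-old males that received a lentivirus into both rostral migratory streams, the path along which newborn neurons travel to the OB, and every virus, that of the control included, carried the Ca2+ indicator Twitch-2B. The control virus also carried H2B-mCherry, the second virus the voltage-gated potassium channel Kv1.2 (from human cDNA) and the third the inwardly rectifying potassium channel Kir2.1 (from mouse cDNA). The bulbs were taken 9 days after injection, and each group had 2 libraries, each from cells pooled from 2 mice, so that 12 mice were used in all. The study compared the groups to learn which transcripts differ when Ca2+ signalling in adult-born cells is altered, and the vector backbone, in which a ubiquitin promoter drives the insert, does not restrict expression to neurons.

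S100 proteins carry a pair of EF-hands, the helix-loop-helix motif that holds Ca2+, and most of them form dimers that expose a binding surface for target proteins once Ca2+ is bound. Inside cells they act on the cytoskeleton, on annexins and on Ca2+ release channels, and some members are secreted and act on receptors such as RAGE (gene Ager) or Toll-like receptor 4. In the brain S100b is best known from astrocytes, oligodendrocyte lineage cells and the ensheathing glia of the olfactory nerve, while S100a5 is known from olfactory sensory neurons. Most of the family lies in one cluster on mouse chromosome 3.

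Of the 8 genes, 7 lie on chromosome 3 and S100b lies on chromosome 10 (GRCm38, GENCODE M21). S100a1 (chr3:90511034-90514392, minus strand) and S100a13 (chr3:90514435-90524581, plus strand) are neighbours that point away from each other with 42 bases between them. S100a16 (chr3:90537254-90543151), S100a4 (chr3:90603771-90606045) and S100a6 (chr3:90612882-90624181) follow on the plus strand. S100a11 (chr3:93520488-93526287) and S100a10 (chr3:93555080-93564643) lie 2824766 bases beyond S100a9, which ends the first run of the S100 genes in the count table. S100b spans chr10:76253853-76261159 on the plus strand. Gm42674 shares 302 exon bases with S100a4 on the same strand and had 0 counts in all 6 libraries, and Dip2a lies over S100b on the opposite strand with 0 shared exon bases.

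The stretches in front of S100a16 and S100b, which were high in the control and nearly missing elsewhere, and the one shared by the neighbours S100a1 and S100a13 are shown because the study concerns a Ca2+-dependent pathway that ends at the transcription factor CREB. They come from RefSeq (GRCm38.p6), are written on the plus strand, and start 250 bases before the first RefSeq start site of S100a16 (chr3:90537004-90537253) and of S100b (chr10:76253586-76253835). The last is the 42 bases shared by S100a1 and S100a13 (chr3:90514393-90514434). Capitals mark CCAAT, the CCAAT box, or ATTGG, the same box on the other strand.
S100a16: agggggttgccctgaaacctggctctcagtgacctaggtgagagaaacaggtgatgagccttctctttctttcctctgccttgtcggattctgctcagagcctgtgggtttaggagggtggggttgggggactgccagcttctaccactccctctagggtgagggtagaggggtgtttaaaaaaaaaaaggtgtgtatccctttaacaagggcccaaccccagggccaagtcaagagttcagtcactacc
S100b: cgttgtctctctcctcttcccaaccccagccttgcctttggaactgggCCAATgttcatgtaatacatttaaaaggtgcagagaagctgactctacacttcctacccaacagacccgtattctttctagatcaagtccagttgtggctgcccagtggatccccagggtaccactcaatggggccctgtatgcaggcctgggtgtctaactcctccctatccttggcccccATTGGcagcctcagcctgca
S100a1 to S100a13: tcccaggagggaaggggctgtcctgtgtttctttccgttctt

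Both strands of the 250 bases before each RefSeq start were searched for 6 motifs, and matches are descriptions of the letters, not binding sites. The full cyclic AMP response element (CRE) TGACGTCA was in 1.55% of the 32851 windows of the table, and its core TGACG, which lies inside the full element, was in 17.8%. The TATA box TATAAA was in 12.4%, the GC box GGGCGG in 32.7%, the CCAAT box in 33.8% and the AP-1 site TGANTCA in 6.75%. The window of S100b held 2 CCAAT boxes, and the first window of S100a16 held none of the 6 motifs. The second RefSeq start of S100a16, inside the gene, had 1 GC box and 1 AP-1 site before it. The window of S100a11 held 3 GC boxes and 2 AP-1 sites, and that of S100a13 held 1 CRE core. That of S100a4 held 1 TATA box, that of S100a6 held 1 CCAAT box and that of S100a1 held none of the 6 motifs. The full CRE was in no window of a listed S100 gene, which says only that these letters are not in these windows. S100a10, S100a2 and S100a14 were not matched in the table.

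The libraries held 8871595 to 13632970 counts over all genes, and the 2 libraries of a group correlated with r of 0.533 to 0.626 across the log2 CPM of the genes tested. Control replicate 2 stood apart, with 2368 CPM summed over 9 microglia markers against 22540 to 47137 in the other 5 libraries and with 12061 genes at 1 CPM or more against 8520 to 10151. In these counts the channel genes did not follow the labels. The study also measured both by quantitative PCR of sorted cells. It reported Kcna2 raised in its Kv1.2 group and Kcnj2 raised in its Kir2.1 group, and stronger Kv1.2 immunofluorescence in its Kv1.2 group. Those measurements are not analysed here. Kcna2 (Kv1.2) had 3 and 451 counts in the control pair, 24 and 5 in the Kv1.2-labelled libraries and 3 and 1 in the Kir2.1-labelled ones, and Kcnj2 (Kir2.1) had 87 and 89, 221 and 1, and 64 and 312. The Kv1.2 insert was human, and how far its reads align to mouse Kcna2 was not tested. The groups are therefore called by their labels throughout. The cells were labelled as neurons, yet the 8 neuroblast markers summed to 89.0 and 152 CPM in the control pair, 0.0801 and 44.2 in the Kv1.2-labelled libraries and 1.27 and 0 in the Kir2.1-labelled ones. Dcx, the doublecortin gene that defines migrating neuroblasts, was at 82.7 and 19.3 CPM in the control pair and at 0 to 0.244 CPM in the 4 channel libraries. The 8 OB interneuron markers summed to 445 and 414 CPM in the control pair and to 4.01 to 60.0 CPM in the channel libraries.

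**Figure D1:**
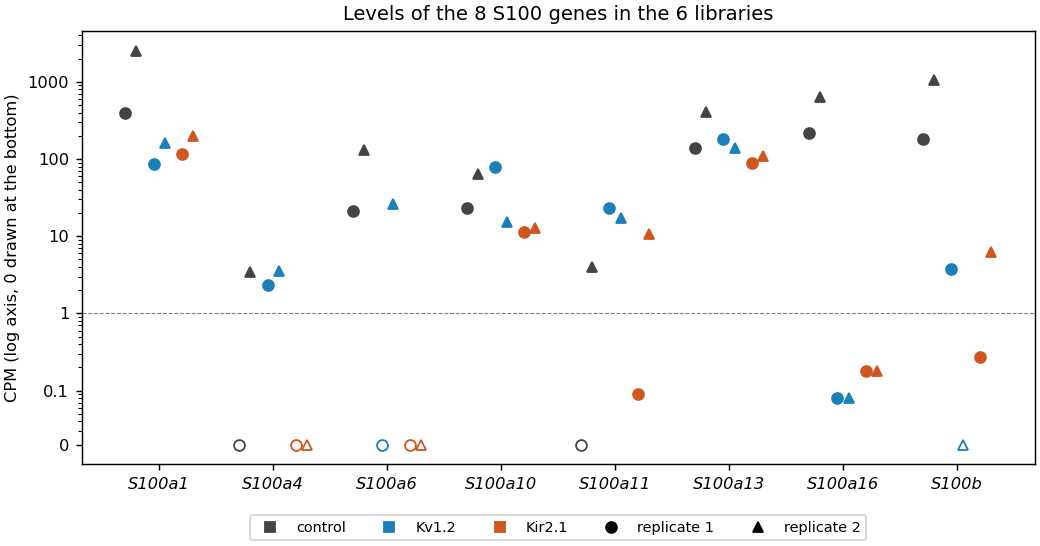
Level of each of the 8 S100 genes in each library, in CPM on a log axis, with open symbols at the bottom for 0 counts and a dashed line at 1 CPM. Circles are replicate 1 and triangles replicate 2 of each group. S100a16 and S100b were above 180 CPM in both control libraries and at most 6.34 CPM in the 4 channel libraries, and S100a13 lay between 87.9 and 409 CPM in all 6.

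The family fell into genes that were high in the control and nearly missing from the channel libraries (S100a16 and S100b), genes present in every library (S100a1, S100a13 and S100a10) and genes found in some libraries only (S100a4, S100a6 and S100a11). Summed over the 8 genes, the level was 987 and 4811 CPM in control replicates 1 and 2, 375 and 363 CPM in the Kv1.2-labelled libraries and 217 and 335 CPM in the Kir2.1-labelled ones. Both control libraries were thus above all 4 channel libraries, and control replicate 2 was the highest. It held the highest value of 5 of the 8 genes (S100a1, S100a6, S100a13, S100a16 and S100b), while over all genes tested 21.7% were highest there. In such bulk samples, fewer cells of a type and less RNA per cell cannot be told apart.

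S100a16, a widely expressed member that is known from astrocytes in the nervous system, had 2201 and 5353 counts in control replicates 1 and 2, or 219 and 641 CPM. It had 1 count in each Kv1.2-labelled library and 2 counts in each labelled Kir2.1. All 4 channel libraries were therefore far below both controls. The group rate was 5085-fold lower in the Kv1.2-labelled libraries (95% exact counting interval 1407 to 41998) and 2267-fold lower in the Kir2.1-labelled ones (885 to 8322). These intervals pool the 2 libraries of a group and so leave out the spread between replicates. They also take each read as independent, although the reads carried no molecular identifiers and copies made by amplification were not told apart. Fitted log2 fold changes were −12.19 ± 1.2 (SE) and −11.12 ± 1.15. S100a16 reached 1 CPM in 2 libraries only, the controls, and so entered the fit through the group in which it was high.

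S100b, the astrocyte and ensheathing glia protein that is also secreted, had 1845 and 8772 counts in the control pair, or 184 and 1050 CPM. In the Kv1.2-labelled libraries it had 47 and 0 counts, and in the Kir2.1-labelled ones it had 3 and 70. The 2 channel libraries with more than 3 counts, Kv1.2 replicate 1 and Kir2.1 replicate 2, were at 3.77 and 6.34 CPM, far below both controls. The group rate was 304-fold lower under the Kv1.2 label (interval 229 to 414) and 175-fold lower under the Kir2.1 label (139 to 223), and the fitted log2 fold changes were −8.35 ± 2.52 and −7.54 ± 2.43. Without control replicate 2 these were −6.69 and −5.87. The value for Kv1.2 was −15.67 without Kv1.2 replicate 1, which leaves that label at 0 counts, and that for Kir2.1 was −11.11 without Kir2.1 replicate 2.

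Markers of the cells that are known to hold S100b moved with it. The 8 astrocyte markers summed to 774 and 2171 CPM in the control pair and to 231 to 362 CPM in the channel libraries. Slc1a3 made up most of the channel sums and overlapped between the groups, at 340 and 443 CPM in the control pair and 172 to 343 CPM elsewhere. Aldoc was at 258 and 977 CPM in the control pair and at 0.544 to 65.2 CPM elsewhere, while Aqp4 and Gjb6 were above 0.272 CPM in control replicate 2 only. The 6 olfactory ensheathing markers summed to 720 and 17726 CPM in the control pair and to 22.5 to 140 CPM in the channel libraries. Fabp7 made up most of that sum in the control and under the Kv1.2 label and Npy under the Kir2.1 label, and Sox10 was above 0 in control replicate 2 only, at 7.06 CPM. The 7 mature oligodendrocyte markers summed to 249 and 660 CPM in the control pair and to 31.0 to 112 CPM elsewhere. Microglia markers were high in 5 libraries and low in control replicate 2. The part of these cell types in the S100 levels was not tested.

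**Figure D2:**
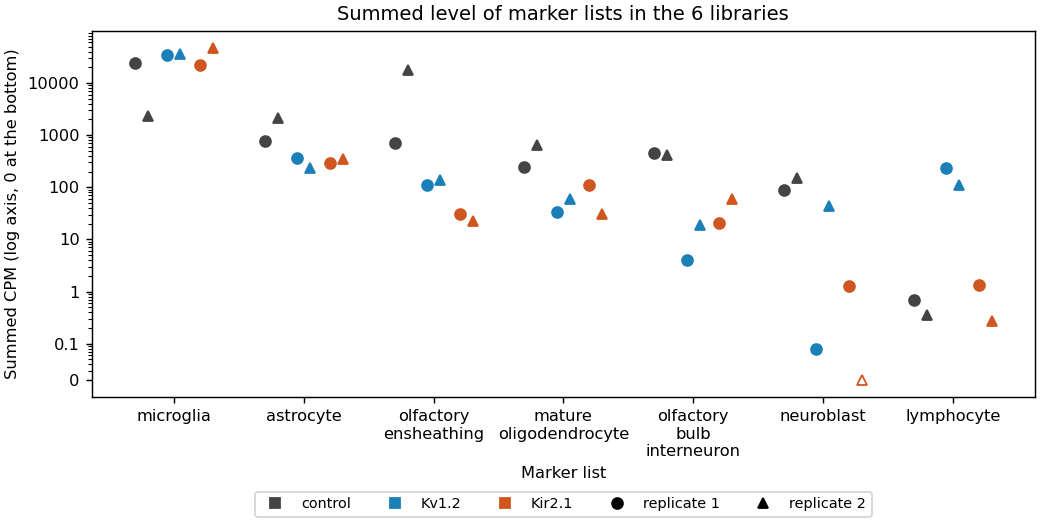
Summed CPM of 7 marker lists in each library on a log axis, with circles for replicate 1, triangles for replicate 2 and an open symbol for 0. Astrocyte, ensheathing, oligodendrocyte and interneuron lists were higher in both controls than in every channel library, and the lymphocyte list reached 232 and 108 CPM in the Kv1.2-labelled libraries and at most 1.36 CPM elsewhere.

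S100a1, which acts on the ryanodine receptor and on the sarcoplasmic Ca2+ pump in heart muscle, had 400 and 2510 CPM in the control pair. It was at 87.2 and 163 CPM in the Kv1.2-labelled libraries and at 117 and 197 CPM in the Kir2.1-labelled ones. The channel libraries did not overlap the control, and the 2 channel labels overlapped each other. Its fitted log2 fold changes were −3.54 ± 0.974 and −3.21 ± 0.960, and they were −1.76 and −1.42 without control replicate 2.

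S100a13, which takes part in the export of fibroblast growth factor 1 (Fgf1) and interleukin 1 alpha from cells, was the steadiest of the 8. It had 141 and 409 CPM in the control pair, 180 and 138 CPM in the Kv1.2-labelled libraries and 87.9 and 108 CPM in the Kir2.1-labelled ones. The Kv1.2 label overlapped the control, and the Kir2.1 label lay below both other groups. The fitted log2 fold changes were −0.79 ± 0.720 for Kv1.2 and −1.49 ± 0.731 for Kir2.1, and without control replicate 2 they were 0.09 and −0.59.

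The 2 neighbouring genes did not keep one ratio. There were 2.84 S100a1 counts per S100a13 count in control replicate 1 (95% exact interval 2.68 to 3.02) and 6.14 in control replicate 2 (5.92 to 6.36). The libraries labelled Kv1.2 had 0.484 (0.450 to 0.521) and 1.18 (1.11 to 1.26), and the Kir2.1-labelled ones had 1.34 (1.23 to 1.45) and 1.82 (1.70 to 1.95). Both controls lay above all 4 channel libraries, and both Kir2.1 libraries lay above both Kv1.2 libraries. Each pair of replicates differed by more than its counting intervals. This ratio is taken within a library and so does not depend on the scaling between libraries.

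**Figure D3:**
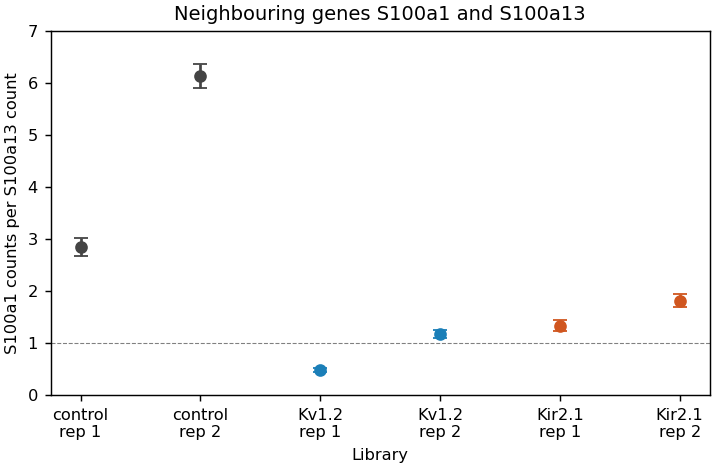
S100a1 counts per S100a13 count in each library, with bars for the 95% exact counting interval and a dashed line at 1. The ratio ran from 0.484 in Kv1.2 replicate 1 to 6.14 in control replicate 2, and S100a13 had the higher count in Kv1.2 replicate 1 alone.

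S100a6 and S100a4 were the genes that had 0 counts in both Kir2.1-labelled libraries. S100a6 (calcyclin), known from dividing and glial cells, had 21.0 and 131 CPM in the control pair and 0 and 26.0 CPM in the Kv1.2-labelled libraries. With their 0 set to a floor of 3 counts over the group, the Kir2.1-labelled libraries had a rate at least 523-fold lower than the control, and the Kv1.2-labelled ones a rate 5.52-fold lower (4.88 to 6.25), where a single library held all 319 counts. S100a4, known for its binding to nonmuscle myosin and for its part in cell motility, had 0 and 29 counts in the control pair and 29 and 44 in the Kv1.2-labelled libraries. Its rate in the Kir2.1-labelled libraries was at least 11.6-fold lower than in the control and at least 21.7-fold lower than in the Kv1.2-labelled ones. It was missing from control replicate 1, so the control overlapped both channel labels.

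S100a10 and S100a11 bind annexins. S100a10 (p11), which has lost the ability to bind Ca2+ and pairs with annexin A2, had 22.9 and 63.1 CPM in the control pair, 78.4 and 15.3 CPM in the Kv1.2-labelled libraries and 11.5 and 12.8 CPM in the Kir2.1-labelled ones. The Kir2.1 label lay below every other library, and the replicates of the Kv1.2 label stood on both sides of the control. Its fitted log2 fold changes were 0.12 ± 1.34 for Kv1.2 and −1.82 ± 1.38 for Kir2.1.

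S100a11, a partner of annexin A1, was the only one of the 8 with a positive fitted change under both labels. It had 0 and 33 counts in the control pair, 288 and 210 in the Kv1.2-labelled libraries and 1 and 117 in the Kir2.1-labelled ones. Both Kv1.2 libraries were above all others, at 23.1 and 17.1 CPM, and Kir2.1 replicate 1 was close to control replicate 1. The fitted log2 fold changes were 3.34 ± 3.06 and 1.43 ± 2.86, and that for Kir2.1 became −4.31 without Kir2.1 replicate 2. The 5 monocyte markers summed to 140 and 26.0 CPM in the Kv1.2-labelled libraries and to at most 1.80 CPM in the other 4. In Kv1.2 replicate 2 that sum was Plac8 alone, with Ccr2, Ly6c2, Chil3 and Vcan at 0. The 6 lymphocyte markers summed to 232 and 108 CPM under the Kv1.2 label and to at most 1.36 CPM elsewhere. Kir2.1 replicate 2, with S100a11 at 10.6 CPM, had 0.272 CPM in each of these lists. The 6 border macrophage markers summed to 1537.5 CPM in Kir2.1 replicate 1, where S100a11 had 1 count, and to at most 140 CPM elsewhere. The part of these cell types in the level of S100a11 was not tested.

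**Figure D4:**
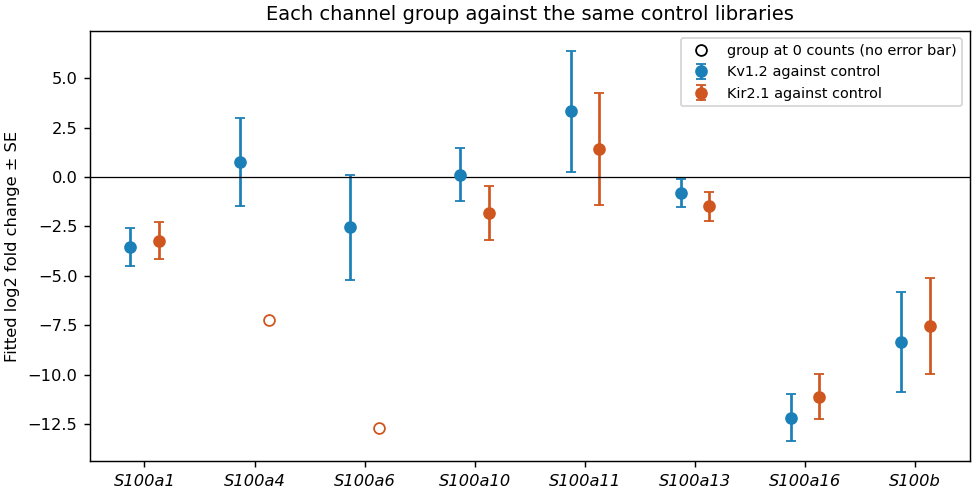
Fitted log2 fold change of each S100 gene in the Kv1.2-labelled and the Kir2.1-labelled libraries against the same 2 control libraries, with bars for 1 standard error. Open symbols mark S100a4 and S100a6 in the Kir2.1-labelled libraries, where both had 0 counts and the fitted value depends on the prior count. S100a16 lay lowest for Kv1.2, at −12.19, and S100a11 highest, at 3.34.

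The 3 comparisons with the control share its libraries, so their values stand side by side and do not support each other. For Kv1.2, 5 of the 8 genes had a fitted value below 0 (52.4% of all genes tested) and 3 above it (47.5%), and 3 were lower (8.81%) and 0 higher (3.23%) at an unadjusted p under 0.05. For Kir2.1, 7 were below 0 (49.1%) and 1 above it (50.8%), and 4 were lower (6.15%) and 0 higher (3.25%) at that level. For both channel labels together, 7 were below 0 (54.3%) and 1 above it (45.7%), and 4 were lower (10.5%) and 0 higher (2.85%). The median log2 fold change of the 8 was −1.67, −5.23 and −3.31, beside −0.12, 0.04 and −0.19 over all genes. These contrasts chose the genes, and nothing is read from the counts.

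By edgeR's quasi-likelihood test with Benjamini-Hochberg adjustment, 0 genes passed 0.05 for Kv1.2 and 0 for Kir2.1, with 1479 and 1154 at an unadjusted p under 0.05, while DESeq2 called 1307 and 989. For both labels together 3 genes passed (0.0244%), and S100a16 was 1 of them. Since it was chosen on these contrasts and entered the fit through the controls alone, nothing is read from that call. It was not called when any one channel library was left out, and without either control library it fell under the minimum and was not fitted. DESeq2 called 3 of the 8 lower for Kv1.2 (S100a1, S100a16 and S100b, beside 8.05% of all genes), and these and S100a6 for Kir2.1 (5.46%) and for both labels together (7.08%). For both labels together 3 of the 8 genes, S100a1, S100a16 and S100b, had channel libraries that were all below both controls (13.8% of all genes), and none had them all above (8.52%). Taken alone, the Kv1.2-labelled libraries were both below both controls for the same 3 genes (24.9%) and above them for S100a11 (19.3%). The Kir2.1-labelled ones were below for S100a1, S100a6, S100a10, S100a13, S100a16 and S100b (22.5%) and above for none (19.9%).

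The direct comparison of the channel labels sets no control library against another. The count minimum, the scaling and the spread still came from the fit of all 6 libraries. When only the Kv1.2-labelled and Kir2.1-labelled libraries were fitted, S100a6 and S100a16 fell under the minimum and 6 genes were left. In the fit of all libraries 5 of the 8 genes had a fitted value below 0 (46.2% of all genes), that is, lower in the Kir2.1-labelled libraries. The other 3 lay above it (53.4%). S100a4 and S100a6, 2 of the 5, were lower at an unadjusted p under 0.05 (2.05%) and none was higher (4.02%). The edgeR quasi-likelihood test called 0 genes in all, with 746 at an unadjusted p under 0.05. DESeq2 called 644, of which S100a6 was the only one of the 8, lower in the Kir2.1-labelled libraries (1.77% of all genes). Neither S100a4 nor S100a6 reached 1 CPM in a Kir2.1-labelled library. S100a6 did so in both controls and in Kv1.2 replicate 2, whose 319 counts were all it had under the channel labels. It passed the minimum only with the controls, and nothing is read from its call. Both Kir2.1 libraries lay below both Kv1.2 libraries for S100a4, S100a10, S100a11 and S100a13, or 4 of 8 (16.7% of all genes). S100a16 alone lay the other way (21.5%), at 2 counts against 1 in each library, where the ratio of 2.24 has a counting interval of 0.321 to 24.8. S100a1 and S100b differed by 0.33 ± 0.883 and 0.81 ± 1.88 on the log2 scale, less than their errors.

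Levels of different genes were compared per length, on the deposited TPM scale. In the control S100a1 was the highest of the 8, at 995 and 4692 TPM, followed by S100b (214 and 918), S100a13 (339 and 742) and S100a16 (234 and 514), and the ranges of those 3 overlapped. S100a6, S100a10, S100a11 and S100a4 came below, at 0 to 125 TPM. In the Kv1.2-labelled libraries, S100a13 (402 and 317 TPM) and S100a1 (201 and 386 TPM) headed the order with overlapping ranges, and S100a11 came next, at 72.0 and 55.0 TPM. In the Kir2.1-labelled ones the order began with S100a1 (419 and 515 TPM) and S100a13 (304 and 275 TPM), whose ranges did not overlap, and every other gene was at most 37.6 TPM. S100a1 made up 54.0% and 66.3% of the summed TPM of the 8 in the control pair, 25.4% and 47.0% in the Kv1.2-labelled libraries and 56.0% and 60.3% in the Kir2.1-labelled ones. S100a13 made up 18.4% and 10.5%, 51.0% and 38.7%, and 40.7% and 32.1%.

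Across the 6 libraries the genes did not vary as one block. Of 28 pairs, 24 had a positive Pearson correlation of log2 CPM, from 0.03 to 0.92, and 4, all with S100a11, a negative one down to −0.44. The closest pairs were S100a16 with S100b (r = 0.92), S100a1 with S100a16 (0.89) and S100a1 with S100b (0.84). The 6 points share the libraries' depth and cell content. The genes were also chosen by how they differed between these groups, so correlations among them are not independent of that choice. The values are given as a description. The genes most like S100a16 were Slc25a23, Ccsap and Grm5 (r of 0.9995, 0.999 and 0.999), and 755 genes exceeded 0.9 for it. For S100b they were Araf, Txndc17 and Mrpl58, with 262 genes over 0.9, for S100a1 Gm2962, Chchd2 and Myt1l, with 358, and for S100a13 the ribosomal protein genes Rpl41 and Rplp1 and then Pnkd, with 207. For S100a10 they were 1700008O03Rik, Smyd2 and Rpl13, for S100a11 Drg2, Dtwd1 and Isoc1, for S100a6 Ttll7, Gm27997 and Rgcc, and for S100a4 Gm13068, 1700084E18Rik and Gin1, with 141 to 159 genes over 0.9.

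Of 10 further S100 genes listed, 9 were in the count table, 8 had a count and 2, S100a5 and S100a8, passed the minimum. S100a5, the member known from olfactory sensory neurons, had 683 and 12979 CPM in the control pair, 9.77 and 31.7 CPM in the Kv1.2-labelled libraries and 0.453 and 0.634 CPM in the Kir2.1-labelled ones. It was thus the most abundant S100 gene of the control, ranked 39th and 3rd of all genes in the TPM table, and every channel library was below both controls. The log2 fold change for both labels together was −10.98 ± 1.31, with an adjusted p of 0.0608 by edgeR's quasi-likelihood test, which did not pass. Over the alternatives that p ran from 1.18e-102 with no count minimum to 0.483 without Kir2.1 replicate 2. Kir2.1 against Kv1.2 gave −5.22 ± 1.46 (adjusted p = 0.739 by edgeR's quasi-likelihood test). For this comparison the adjusted p was 0.00564 by DESeq2 and 0.0573 by the likelihood ratio test. It was 4.07e-18 by the quasi-likelihood test with no count minimum.

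S100a8, which pairs with S100a9 as calprotectin in neutrophils, had 28.8 and 3.83 CPM in the control pair, 8.09 and 0 CPM in the Kv1.2-labelled libraries and 0 in both labelled Kir2.1. Its change for both labels was −6.24 ± 2.71 on the log2 scale (adjusted p = 0.397 by edgeR). S100a9 had 145 counts in Kv1.2 replicate 1 and 1 in control replicate 1, so the pair did not share its highest library. S100a3 had 84 of its 85 counts in control replicate 2, as did S100g with 24 of 25. S100a2, S100a7a and S100z had 7, 4 and 3 counts in all, and S100a14, which lies between S100a13 and S100a16, had none in any library.

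**Figure D5:**
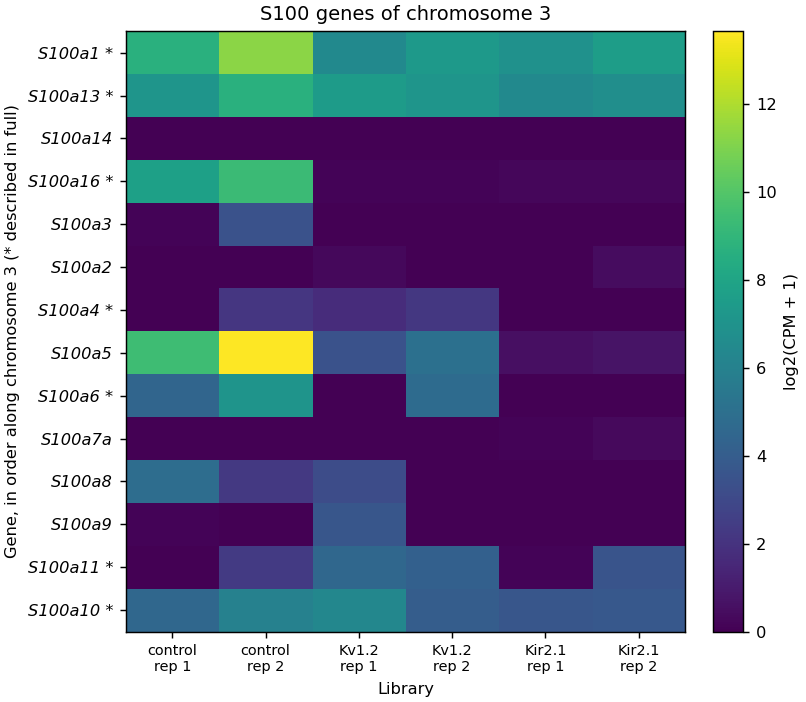
log2(CPM + 1) of the 14 S100 genes of chromosome 3 that were listed and in the count table, in the 6 libraries. Genes are in order along the chromosome from top to bottom, with those described in full marked by an asterisk. Genes next to each other differed: S100a14 had 0 counts beside S100a13 and S100a16, and S100a5 reached 12979 CPM in control replicate 2 between S100a4 and S100a6.

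Of 17 listed partners of S100 proteins, 14 were tested. For both labels together 1 was higher (Trp53) and 3 were lower (Syt1, Fgf1 and Ryr2) at an unadjusted p under 0.05, which 2.85% and 10.5% of all genes were, and edgeR's test called none of them after adjustment, while DESeq2 called 1 higher (2.92% of all genes) and 3 lower (7.08%). Trp53, which encodes the tumour suppressor p53, a target of S100b and S100a4, had 4.78 and 0.120 CPM in the control pair and 63.7 to 90.1 CPM in the 4 channel libraries (log2 fold change 4.95 ± 1.63, adjusted p = 0.252 by edgeR). Syt1, the synaptic vesicle Ca2+ sensor, was at 89.2 and 223 CPM in the control pair and at 0 to 9.77 CPM in the channel libraries (−6.94 ± 1.80, adjusted p = 0.201 by edgeR). Fgf1, the growth factor whose export uses S100a13, was at 8.96 and 76.0 CPM in the control pair and at most 0.244 CPM elsewhere. Fgf1 thus entered the fit through the controls alone, where it was high, and nothing is read from the counts of this list past a threshold. Ryr2, a Ca2+ release channel of the family that S100a1 binds, was at 15.4 and 29.2 CPM and then at 0.326 to 2.36 CPM.

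Of 8 listed S100 receptors 5 were tested. For both labels together 1 was higher (Cd36) and 1 lower (Fgfr1) at an unadjusted p under 0.05, beside 2.85% and 10.5% of all genes. After adjustment edgeR's test called none, while DESeq2 called 1 higher (2.92% of all genes) and 1 lower (7.08%). Cd36, a scavenger receptor for S100a8 and S100a9, had 0.299 and 0 CPM in the control pair, 115 and 52.7 CPM in the Kv1.2-labelled libraries, and 53.2 and 0 CPM in the Kir2.1-labelled ones (8.16 ± 3.24 on the log2 scale, adjusted p = 0.341 by edgeR). Fgfr1, a fibroblast growth factor receptor, was at 5.68 and 25.1 CPM in the control pair and at most 0.362 CPM in the channel libraries. Fgfr1 entered the fit through the controls alone and Cd36 through channel libraries alone, in each case where the gene was high. Nothing is read from the counts of this list past a threshold. Bsg and Cd33, which encode the surface proteins basigin and CD33, changed by 0.83 ± 0.537 and 1.22 ± 0.864 on the log2 scale and did not pass (adjusted p = 0.540 and 0.578 by edgeR).

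Of 20 other EF-hand genes, 16 were tested and 13 had a fitted value below 0 for both labels together (54.3% of all genes). None was higher (2.85%) and 7 were lower (10.5%) at an unadjusted p under 0.05, and edgeR's test called none after adjustment, while DESeq2 called 4 lower (7.08%). Hpca, Necab1 and Ncs1, which encode neuronal Ca2+ sensors, were at 1.39 to 47.0 CPM in the control pair and at most 0.453 CPM in the 4 channel libraries. They reached 1 CPM in the controls only and so entered the fit through the group in which they were high. Nothing is read from the counts of this list past a threshold. The median log2 fold change of the list was −1.41, beside −3.31 for the 8 S100 genes and −0.19 over all genes, and the difference between the lists was not tested.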

How the data were processed

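Sorted cells (3000 to 4500 a library) gave cDNA by 17 cycles and libraries by 12 cycles of amplification. The authors aligned the reads to GRCm38 with STAR 2.7.0f, removed multi-mapping reads with SAMtools 1.9 and counted reads per gene with Subread 1.6.4, with the strand setting not given in any source used here. They deposited these raw counts with gene lengths, and TPM and FPKM values that the authors made from TMM-scaled counts and gene length. Tables with the fold changes, p-values and false discovery rates of the authors' own comparisons, and a CPM table, were not used.

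Groups came from the sample labels. From the raw counts, genes with at least 1 CPM in 2 of 6 libraries were fitted in edgeR 4.0.16 (R 4.3.3; TMM, glmQLFit, 1 fit of all libraries, Benjamini-Hochberg over 12275 genes, threshold 0.05); standard errors are the fold change over the root of F. The fit was tested on simulated data. DESeq2 1.42.0, the likelihood ratio test, other scalings and minimums, the replicate block and leaving out libraries were alternatives. Counting intervals are exact at 95%, and a group at 0 counts takes a floor of 3. Levels were correlated as log2 CPM with a prior count of 2. Replicates were pools of different mice.

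The 8 genes and all lists were chosen with earlier results of these data known. Named are the 8, other S100 genes with a count, the 4 genes of each further list with the smallest p for both labels together, and the 3 genes most alike to each of the 8. A gene that this rule names is not reported here.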

Additional observations from a re-analysis of the deposited data

How the results depend on the processing

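Counts of genes called by edgeR's quasi-likelihood test depended on the tool. For both channel labels together (3 genes), DESeq2 called 1228, the likelihood ratio test 1097, no count minimum 263, and a minimum of 1 CPM in 5 libraries, chosen after seeing the data, 0. For Kir2.1 (0 genes, 1154 at an unadjusted p under 0.05) DESeq2 called 989, the likelihood ratio test 225 and no minimum 122. For Kv1.2 (0, 1479) these were 1307, 723 and 138, and for Kir2.1 against Kv1.2 (0, 746) they were 644, 68 and 27. Leaving out 1 library at a time gave 0 to 37 genes for both labels (37 without control replicate 1), 0 to 11 for Kir2.1, 0 to 3 for Kv1.2 and 0 for Kir2.1 against Kv1.2. The cause was not tested. With the replicate block 9 genes were called for both labels. Replicate numbers did not pair the libraries, since deviations of same-numbered libraries correlated at 0.013, −0.040 and −0.003.

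The median log2 fold change of the 8 S100 genes for both labels ran from −4.26 without control replicate 1 to −0.25 without control replicate 2. In both of these settings S100a16 fell under the minimum and 7 genes were left. Of 439 values of single S100 genes under an alternative, 411 moved by less than 1 SD between replicates, 7 of them across 0 (among these S100b in Kir2.1 against Kv1.2, to −0.60 with the replicate block, and S100a10 in Kv1.2, to −0.17 with the minimum in 5 libraries). The 6 that changed sign by more did so when 1 library was left out, with leave-one-out ranges of −1.49 to 0.94 for S100a10 and −1.47 to 0.092 for S100a13 in Kv1.2, −4.31 to 8.91 for S100a11 in Kir2.1, −0.48 to 9.86 for S100a11 and −4.34 to 4.03 for S100a4 in both labels, and −2.76 to 8.13 for S100b in Kir2.1 against Kv1.2. The order of the 8 by TPM kept 22 of 24 ranks by FPKM and 20 by CPM. For genes with 0 counts in a group, such as S100a4 and S100a6, the size of the fold change depends on the floor or the prior count. The part of depth in these low counts was not tested.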
